A study of Homo sapiens with 21 samples.

Results

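Replication-dependent histone genes encode the bulk histones that package newly made DNA: the core histones H2A, H2B, H3 and H4 and the linker histone H1. In A673, a cell line of Ewing sarcoma, they were followed through loss and replacement of EWS/FLI, the fusion transcription factor of that tumour. Members were chosen by gene name (older names from HIST1H to HIST4H, or the current H1, H2AC, H2BC, H3C and H4C names, without pseudogenes), a rule that reads no measured value, although the family itself was picked with earlier results of these data known. Of 57820 genes in the deposited table, 35 were members, and 32 of these reached 10 on the linear scale in at least 3 libraries and were tested among 18040 genes. The members past that filter were 6 H1, 8 H2A, 9 H2B, 5 H3 and 4 H4 genes. HIST1H2AA, HIST1H2BA and HIST3H3, histone genes known from the testis, did not reach the filter: their log2 values lay between 1.63 and 2.63, between 1.48 and 2.65, and between -0.93 and -0.51 over all groups. A further 35 coding histone genes of the annotation had no matching ID among the rows and were not analysed here.

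Most mRNAs of these genes are made in S phase, when DNA is copied, and end in a conserved stem-loop instead of a poly(A) tail. NPAT, activated by cyclin E and CDK2, drives their transcription at histone locus bodies, and the stem-loop binding protein SLBP with the U7 snRNP (which holds LSM10 and LSM11) directs the cut that forms the 3′ end. EWS/FLI joins the activating part of EWS to the DNA-binding part of the ETS factor FLI1 and is known for binding GGAA repeats.

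The 21 libraries of total RNA fell into 5 groups. The rescue groups, 3 in number, carried RNAi against EWS/FLI and a retroviral rescue vector: wild-type EWS/FLI of type IV (batches 1 to 5), the delta 22 mutant, known as a deletion within the EWS part (batches 1 to 4), or the mut9 mutant (batches 3 to 5). The series asks what the EWS part of the fusion contributes. EWS/FLI knockdown libraries carried the same RNAi with an empty vector (batches 1 to 5), and control RNAi libraries carried RNAi against luciferase with an empty vector (batches 1, 2, 3 and 5). All cells were A673 and all had been selected for 4 days before the second infection, so each group is a stably infected population of 1 cell line. The replicate number is the labelled batch. No source used here says that replicates were separate cultures, so p-values measure the spread between these libraries, which may be technical.

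FLI1, read both from the fusion and from any native gene, had log2 values from 10.35 to 10.69 in wild-type rescue, 10.99 to 11.51 in delta 22 rescue, 10.10 to 10.39 in mut9 rescue, 9.59 to 9.99 in knockdown and 11.56 to 11.69 in control libraries. Knockdown libraries were the lowest, and no rescue group reached the control range. EWSR1 ranged from 13.67 to 14.04, 13.56 to 13.70, 13.79 to 13.94, 13.58 to 13.81 and 14.11 to 14.23 in the same groups. The Ewing sarcoma marker genes NKX2-2, NR0B1 and STEAP1 were present (6.77 to 12.87), whereas CD3E and KRT5 were below 0 and ALB did not exceed 0.55. EPCAM, PTPRC and CDH5 lay between 1.72 and 4.98. CD99 is listed at 0 throughout. Library totals are not kept by the deposited values, so the depth is unknown, but 16708 to 17326 genes reached 10 on the linear scale in each library.

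The sequence features that define the family were read first, since they set which genes can share reads and which share a 3′ end or a promoter element. The stem-loop, searched as GGNNCTTTTNAGNGNC on the transcript strand of GENCODE 29, was in transcripts of 17 of the 32 tested members and of 45 of 19684 coding genes in all (0.229%). Many of the other member transcripts are annotated without their 3′ end, so a missing match says only that these letters are not in the annotated transcript. Of the 17, 11 held the same core, 3 H4 genes held another, and HIST1H2BC with HIST1H2BD and HIST1H2AG alone held the other 2 forms. One gene is shown for each core, with a second gene for the first core and for the H4 core so that a HIST1 gene and a gene of another locus stand side by side. The core is in capitals, written as DNA with 5 flanking bases on each side.
HIST1H2AC: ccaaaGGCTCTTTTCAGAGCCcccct
HIST2H2BE: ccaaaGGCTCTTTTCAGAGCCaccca
HIST1H2AG: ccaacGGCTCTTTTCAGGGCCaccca
HIST1H2BD: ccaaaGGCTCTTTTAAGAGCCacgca
HIST1H4H: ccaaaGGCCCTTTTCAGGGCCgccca
HIST4H4: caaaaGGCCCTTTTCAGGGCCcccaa

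Promoters (250 bases before to 50 after the start, RefSeq, GRCh38.p14) were matched for 29 of the 32 tested members and searched on both strands. AAACACA, the H1 box, was in 6 of 6 H1 promoters and in 5.644% of all 35116 promoters. ATTTGCAT, the octamer of H2A and H2B promoters bound by POU2F1, was in 5 of 7 H2A and 5 of 9 H2B promoters, against 1.774% of all. GGTCCG, known from H4 promoters, was in 3 of 3 H4 promoters and in 11.277% of all. CCAAT was in 26 of 29 member promoters and in 34.614% of all, the exceptions being the 3 H4 promoters. TATAAA was in 19 of 29 and in 11.53% of all. A pair of adjacent GGAA units, GGAAGGAA, was in 0 of 29 and in 3.674% of all promoters. Matches of GGTCCG and CCAAT overlapped in 2 of the 29 promoters, and no other pair of these motifs overlapped in any of them.

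The promoters of 5 genes are shown because their genes contrast in the results while sharing the class motif, with the H1 box, octamer, H4 motif and CCAAT in capitals in either orientation. HIST1H1T (chr6:26108086-26108385) and HIST1H1C (chr6:26056421-26056720) are the H1 genes with the highest and the lowest estimate on wild-type rescue. HIST1H2BC (chr6:26123877-26124176) and HIST2H2BE (chr1:149886633-149886932) are octamer-bearing H2B genes of different loci, and that of HIST2H2BE also holds GGTCCG, which that of HIST1H2BC does not. HIST4H4 (chr12:14771082-14771381) is the H4 gene outside the main cluster. All 5 lie on the minus strand and are written in the direction of transcription.
HIST1H1T: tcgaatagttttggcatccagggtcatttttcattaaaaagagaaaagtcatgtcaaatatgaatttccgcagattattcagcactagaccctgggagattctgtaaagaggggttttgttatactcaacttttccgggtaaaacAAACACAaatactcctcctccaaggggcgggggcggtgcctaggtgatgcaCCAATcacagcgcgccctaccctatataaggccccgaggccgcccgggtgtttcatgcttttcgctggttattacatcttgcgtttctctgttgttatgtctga
HIST1H1C: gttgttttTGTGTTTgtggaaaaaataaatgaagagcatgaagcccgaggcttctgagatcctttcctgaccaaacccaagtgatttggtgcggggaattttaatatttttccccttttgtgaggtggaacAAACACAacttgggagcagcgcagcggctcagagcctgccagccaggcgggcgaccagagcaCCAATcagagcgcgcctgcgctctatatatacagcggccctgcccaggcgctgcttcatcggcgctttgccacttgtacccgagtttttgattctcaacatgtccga
HIST1H2BC: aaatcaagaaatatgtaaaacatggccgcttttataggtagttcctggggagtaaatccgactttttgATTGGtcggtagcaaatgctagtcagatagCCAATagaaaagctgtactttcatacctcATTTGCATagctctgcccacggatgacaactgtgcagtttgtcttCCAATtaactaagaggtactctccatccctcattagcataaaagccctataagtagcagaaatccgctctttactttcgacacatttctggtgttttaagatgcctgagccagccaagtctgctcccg
HIST2H2BE: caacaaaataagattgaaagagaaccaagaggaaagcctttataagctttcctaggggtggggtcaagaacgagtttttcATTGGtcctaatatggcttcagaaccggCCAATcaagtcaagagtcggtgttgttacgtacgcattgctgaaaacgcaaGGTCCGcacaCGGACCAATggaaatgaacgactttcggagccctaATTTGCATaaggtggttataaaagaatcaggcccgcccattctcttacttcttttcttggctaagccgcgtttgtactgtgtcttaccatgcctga
HIST4H4: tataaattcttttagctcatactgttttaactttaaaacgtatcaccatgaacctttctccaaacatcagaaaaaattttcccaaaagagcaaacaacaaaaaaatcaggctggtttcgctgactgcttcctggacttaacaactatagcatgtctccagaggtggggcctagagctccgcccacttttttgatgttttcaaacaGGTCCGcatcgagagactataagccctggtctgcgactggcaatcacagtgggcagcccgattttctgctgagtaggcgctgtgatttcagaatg

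Some histone genes are near-identical to one another, so shared sequence was measured as the share of 50-base windows of a gene's transcripts also present in another gene. It was under 10% for 20 of the 32 tested members, including all 6 H1 genes at 0.0%, and 100% for HIST1H3D, HIST2H2AA3, HIST2H3A and HIST2H3C. How reads common to such copies were counted is not given in the sources used here, and values of those genes are uncertain. Counts are therefore also given for the 20 members under 10%. Per kilobase of coding length, on the linear scale of the deposited values averaged over libraries, HIST1H1C (49263) and HIST1H2BD (48815) were the highest members and HIST2H3C (50.2) was the lowest of the tested ones.

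EWS/FLI knockdown was accompanied by lower histone gene RNA in every class. Differences below are log2, first group minus second, with their standard error, from limma fitted to all 18040 genes, with p adjusted by Benjamini-Hochberg and called below 0.05. In knockdown minus control, 30 of 32 members fell and 0 rose, with a median difference of -0.93. Of all genes tested, 34.0% fell and 35.5% rose, with a median of -0.01, and medians of all genes in the other comparisons lay between 0.00 and 0.03. All 6 H1 genes fell (median -1.33), with 7 of 8 H2A genes (-0.74), 9 of 9 H2B (-0.88), 4 of 5 H3 (-1.25) and 4 of 4 H4 (-0.86). In 31 members every knockdown library lay below every control library, against 28.7% of all genes. Among the 20 members under 10% shared sequence, 20 fell (median -0.97). Quantile scaling moved the median of all genes in this comparison to -0.20 and its calls to 5105 higher and 8341 lower, against 6405 higher and 6132 lower as deposited, and all 32 members were then called lower. It also turned the balance of calls over all genes to 7087 higher and 4816 lower in wild-type rescue minus knockdown (median 0.12), against 5334 and 5820 as deposited. In mut9 minus wild-type rescue it gave 1648 higher and 2105 lower, against 2018 and 1372, and in wild-type rescue minus control 3096 and 4153, against 3834 and 3301. In mut9 rescue minus knockdown it gave 5056 and 4019, against 4151 and 4608, and in delta 22 minus wild-type rescue 4829 and 6705, against 5727 and 5318.

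Summed on the linear scale over the 32 members, knockdown libraries held 150820 to 212017 and control libraries 358682 to 377316, in the normalized units of the table. The H1 genes alone summed to 80371 ± 13669 in knockdown (SD, n = 5) and 171638 ± 4959 in control libraries (n = 4). In bulk RNA, fewer cells in S phase and less histone RNA per cell cannot be told apart.

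**Figure D1:**
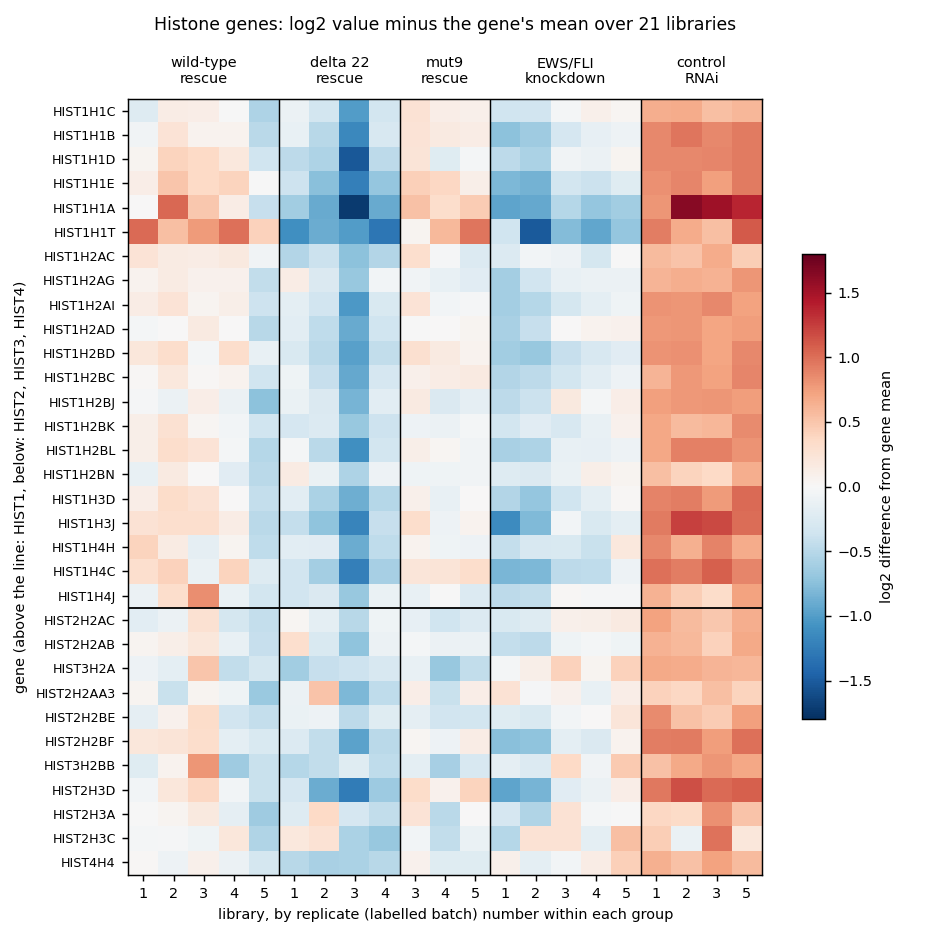
Log2 value minus the gene's mean over 21 libraries (colour scale) for 32 histone genes (rows, HIST1 genes above the line) in each library (columns, by group and replicate number). Control libraries are high in nearly every row, delta 22 replicate 3 is the lowest library for 26 of the 32 genes, and HIST1H1T is high in wild-type rescue, mut9 rescue and control libraries.

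HIST1H1A, an H1 linker histone gene, had the largest fall. Its log2 values were 10.42, 10.45, 10.85, 10.68 and 10.75 in knockdown libraries, against 12.16, 13.01, 12.90 and 12.74 in control libraries. The groups did not overlap, and the lowest control library was replicate 1. The difference was -2.07 ± 0.24, a 4.20-fold lower level (limma adjusted p = 2.51e-07).

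HIST1H1T, the gene of the testis linker histone H1t, was the lowest H1 gene per kilobase of coding length (99.2 on the linear scale). Its values were 5.59, 4.43, 5.17, 5.01 and 5.25 in knockdown libraries, against 6.87, 6.62, 6.49 and 7.05 in control libraries. All knockdown libraries were below all control libraries, with a difference of -1.67 ± 0.22 (limma adjusted p = 9.55e-07).

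HIST1H3J, a core H3 gene that shared no window with another gene, had 9.49, 9.83, 10.57, 10.35 and 10.44 in knockdown libraries, against 11.56, 11.85, 11.80 and 11.62 in control libraries. Knockdown replicates 1 and 2 were the lowest, and the groups did not overlap. The difference was -1.57 ± 0.21 (limma adjusted p = 1.39e-06).

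The other H1 genes fell as well. HIST1H1C fell by 0.74 ± 0.16, HIST1H1D by 1.12 ± 0.19, HIST1H1B by 1.30 ± 0.17 and HIST1H1E by 1.36 ± 0.15 on the log2 scale (limma adjusted p = 0.000295, 3.44e-05, 1.67e-06 and 1.83e-07). Among H4 genes, whose proteins are identical, HIST1H4C fell by 1.49 ± 0.17 and HIST4H4 by 0.53 ± 0.11. The difference between these 2 falls was not tested. Other abundant members also fell, HIST1H2AG by 0.93 ± 0.14 and HIST2H2AC by 0.64 ± 0.13 among H2A genes and HIST1H4H, of the H4 class, by 1.01 ± 0.16 (limma adjusted p = 8.23e-06, 0.000154 and 1.31e-05).

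Both members that were not called share all their windows with other genes. HIST2H2AA3 differed by -0.38 ± 0.21 (limma adjusted p = 0.110) and HIST2H3C by -0.30 ± 0.25 (limma adjusted p = 0.295), at mean log2 values of 7.29 and 4.43 in knockdown libraries and 7.67 and 4.73 in control libraries.

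Some histone genes are known to give polyadenylated as well as stem-loop forms, and 6 such genes (HIST1H1C, HIST1H2AC, HIST1H2BC, HIST1H2BD, HIST1H2BK and HIST2H2BE) were taken as a list from general knowledge. All 6 fell in knockdown minus control, where 34.0% of all genes fell. Their median was -0.80, with a range from -1.24 in HIST1H2BD to -0.69 in HIST1H2AC. The median over the 32 members, which include these 6, was -0.93. The labels name total RNA and the ScriptSeq kit, and no selection of polyadenylated RNA is given in the sources used here.

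**Figure D2:**
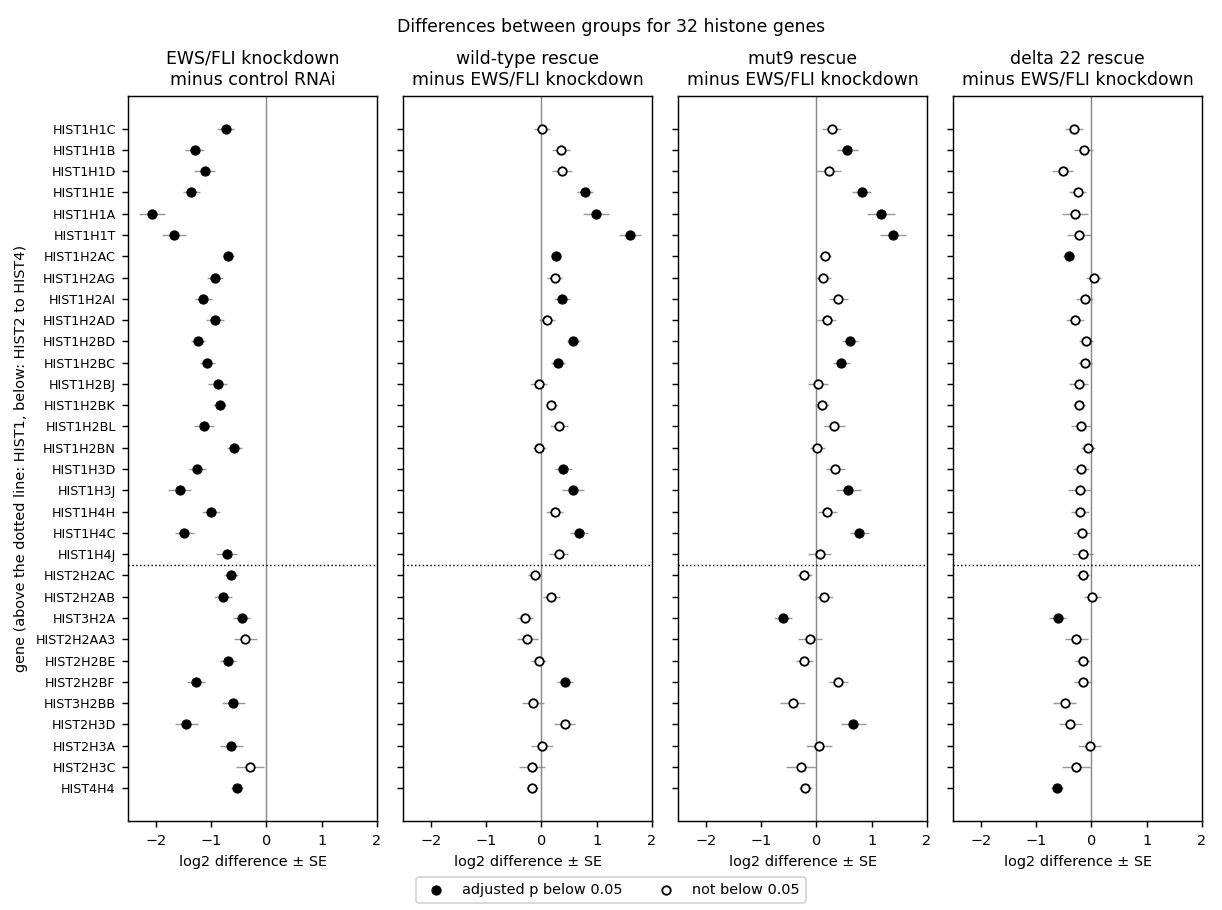
Log2 difference with its standard error (horizontal) for each of 32 histone genes (vertical, HIST1 above the dotted line) in 4 comparisons, with filled points for limma adjusted p below 0.05. In knockdown minus control 30 points are filled and all lie left of 0, and in the rescue panels the filled points on the right are mostly H1 genes and other HIST1 genes.

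With wild-type EWS/FLI the share of members called higher than in knockdown was near that of all genes, so the count is not a result about the members. In wild-type rescue minus knockdown, 11 of 32 members rose and 0 fell, where 29.6% of all genes rose and 32.3% fell. The median over members was 0.25, against 0.01 over all genes. The genes that rose were 3 H1, 2 H2A, 3 H2B, 2 H3 genes and 1 H4 gene, and for 4 members every wild-type rescue library lay above every knockdown library, a smaller share than the 20.0% of all genes. The knockdown libraries serve in both this comparison and the one with control, so the rise and the fall share 5 libraries, and the wild-type rescue and delta 22 libraries likewise serve in several comparisons. The count was 6 without knockdown replicate 1, 7 without knockdown replicate 2 or without wild-type replicate 2, and 18 without wild-type replicate 5. Among the 20 members under 10% shared sequence, 8 rose.

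HIST1H1T had the largest rise. Its values were 6.97, 6.48, 6.71, 6.94 and 6.36 in wild-type rescue libraries, against the knockdown values of 4.43 to 5.59 given above, with no overlap. The difference was 1.60 ± 0.20, a 3.04-fold higher level (limma adjusted p = 1.19e-06). HIST1H1A had 11.37, 12.40, 11.85, 11.51 and 10.95 in wild-type rescue libraries, each above the highest knockdown value of 10.85. It rose by 0.99 ± 0.23 (limma adjusted p = 0.000886). HIST1H1E, one of the main somatic linker histone genes, had 14.08, 14.47, 14.32, 14.36 and 13.96 in wild-type rescue libraries, against 13.16, 13.11, 13.64, 13.58 and 13.74 in knockdown libraries. It rose by 0.79 ± 0.15 (limma adjusted p = 9.83e-05), again without overlap.

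The other somatic H1 genes did not pass the test. HIST1H1C, whose promoter is shown above beside that of HIST1H1T, had 14.71, 15.07, 15.06, 14.94 and 14.38 in wild-type rescue libraries, against 14.58, 14.60, 14.91, 15.03 and 14.98 in knockdown libraries. The groups overlapped fully and the estimate was 0.01 ± 0.15 (limma adjusted p = 0.948). HIST1H1B and HIST1H1D differed by 0.35 ± 0.16 and 0.37 ± 0.18 (limma adjusted p = 0.0705 and 0.0888). Both were called without wild-type replicate 5, at 0.46 and 0.49 (limma adjusted p = 0.0183 and 0.0241), under quantile scaling, at 0.56 each (limma adjusted p = 0.0034 and 0.00713), and in batches 1 to 4 alone, at 0.54 and 0.56 (limma adjusted p = 0.0154 and 0.0234). HIST1H1B was also called without knockdown replicate 5, at 0.42 (limma adjusted p = 0.0389).

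Among core histones, HIST1H4C, an H4 gene, had 11.81, 11.92, 11.39, 11.90 and 11.27 in wild-type rescue libraries, against 10.69, 10.70, 11.04, 11.05 and 11.42 in knockdown libraries. It rose by 0.68 ± 0.16 (limma adjusted p = 0.00108), although knockdown replicate 5 lay above 2 wild-type libraries. HIST1H2BD, an H2B gene, rose by 0.58 ± 0.12 (limma adjusted p = 0.000316) without overlap. HIST1H3J rose by 0.58 ± 0.20 (limma adjusted p = 0.0145), a call lost without knockdown replicate 1. HIST1H2AC, an H2A gene, rose by 0.27 ± 0.09 (limma adjusted p = 0.0150). The rise of HIST1H2BC, 0.30 ± 0.13, was called at a limma adjusted p of 0.0445 and missed the threshold with the batch as a replicate block (limma adjusted p = 0.0542) and without any of wild-type replicates 1 to 4 or knockdown replicates 1 to 3. That of HIST1H3D, which shares all its windows with other genes, 0.40 ± 0.15 (limma adjusted p = 0.0215), was lost without wild-type replicate 2 or 3 or knockdown replicate 1 or 2. None of these core histone genes was called in batches 3 to 5 alone. There HIST1H4C, HIST1H2BD and HIST1H2AC were at 0.35, 0.36 and 0.22 (limma adjusted p = 0.142, 0.0593 and 0.209). HIST1H3J, HIST1H2BC and HIST1H3D were at 0.15, 0.1 and 0.11 (limma adjusted p = 0.605, 0.593 and 0.606).

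Members stayed below control in wild-type rescue. In wild-type rescue minus control, 29 of 32 members were lower and 0 higher, where 18.3% of all genes were lower and 21.3% higher. The median was -0.75, and in 27 members every wild-type rescue library lay below every control library (14.7% of all genes). HIST1H1T was the member nearest to control, at -0.07 ± 0.22 (limma adjusted p = 0.831), with wild-type rescue values of 6.36 to 6.97 and control values of 6.49 to 7.05. The other members that were not called lower were HIST1H4J at -0.41 ± 0.19 (limma adjusted p = 0.0918) and HIST2H3C at -0.47 ± 0.25 (limma adjusted p = 0.142). HIST1H1A was 1.08 ± 0.24 lower than control on the log2 scale, HIST2H3D, an H3 gene, 1.03 ± 0.21 and HIST1H3J 0.99 ± 0.21 (limma adjusted p = 0.00148, 0.000592 and 0.000958).

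**Figure D3:**
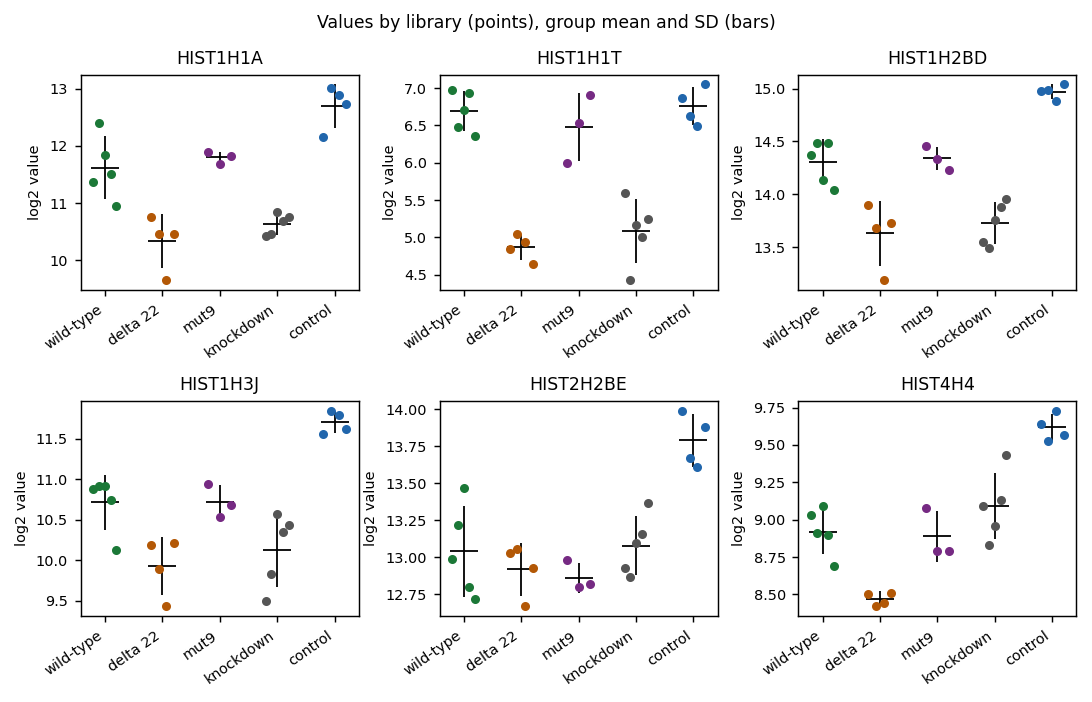
Log2 values of 6 histone genes (vertical, a scale per panel) in each library (points) with group mean and SD (bars), for wild-type, delta 22 and mut9 rescue, knockdown and control libraries. HIST1H1T reaches the control range in wild-type rescue, HIST1H1A lies between, HIST2H2BE overlaps the knockdown in all rescue groups, and HIST4H4 is lowest in delta 22 rescue.

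With mut9, measured in 3 libraries, H1 genes had the 3 largest rises. In mut9 rescue minus knockdown, 9 of 32 members rose and 1 fell, where 23.0% of all genes rose and 25.5% fell, with a median of 0.20 over members. The share of members that rose was near that of all genes, so this count is not a result about the members. The genes that rose were 4 H1, 2 H2B, 2 H3 genes and 1 H4 gene, no H2A gene rose, and HIST3H2A fell. The split by class is a description and was not tested.

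HIST1H1T had 6.0, 6.53 and 6.91 in mut9 libraries, above all knockdown libraries, and rose by 1.39 ± 0.23 (limma adjusted p = 6.66e-05). HIST1H1A had 11.90, 11.69 and 11.82 and rose by 1.17 ± 0.26 (limma adjusted p = 0.00105). HIST1H1E had 14.40, 14.34 and 14.07 and rose by 0.82 ± 0.17 (limma adjusted p = 0.000454). For all 3 genes the mut9 and knockdown values did not overlap. HIST1H4C rose by 0.78 ± 0.18, HIST1H2BD by 0.61 ± 0.14, HIST1H1B by 0.56 ± 0.19 and HIST1H2BC by 0.45 ± 0.15 (limma adjusted p = 0.00158, 0.00111, 0.0188 and 0.0155). The call for HIST1H1B was lost without mut9 replicate 3. The rises of HIST2H3D, with 80.4% of its windows shared, 0.67 ± 0.22 (limma adjusted p = 0.0183), and HIST1H3J, 0.58 ± 0.23 (limma adjusted p = 0.0399), missed the threshold with a replicate block (limma adjusted p = 0.0504 and 0.0766). Both were also lost without mut9 replicate 3 or 5, and HIST1H3J without knockdown replicate 1 or 2. In batches 3 to 5 alone, the batches that hold mut9, HIST1H1B and HIST1H2BC were at 0.36 and 0.33 (limma adjusted p = 0.166 and 0.1). HIST2H3D and HIST1H3J were at 0.34 and 0.27 there (limma adjusted p = 0.187 and 0.365), so none of these genes was called.

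HIST3H2A, an H2A gene on chromosome 1, moved the other way. It had 10.17, 9.62 and 9.86 in mut9 libraries, against 10.27, 10.42, 10.72, 10.36 and 10.72 in knockdown libraries. It was lower by 0.61 ± 0.16 on the log2 scale (limma adjusted p = 0.00447). In knockdown against control HIST3H2A fell by 0.45 ± 0.15 (limma adjusted p = 0.0123). That fall was not called in batches 3 to 5 alone, the batches that hold mut9 (-0.31, limma adjusted p = 0.302).

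Mut9 and wild-type rescue were also compared directly. In mut9 rescue minus wild-type rescue, 0 of 32 members passed limma in either direction and 0 had an unadjusted p below 0.05, where 11.2% of all genes were higher and 7.61% lower. The estimates ran from -0.32 to 0.27 with a median of -0.01. Their standard errors reached 0.27, and a p that misses the threshold does not show that the constructs act alike. HIST1H1T differed by -0.21 ± 0.23, HIST1H1A by 0.19 ± 0.26 and HIST1H1C by 0.27 ± 0.17.

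With delta 22, HIST4H4, HIST3H2A and HIST1H2AC fell below knockdown. In delta 22 rescue minus knockdown, 0 of 32 members rose and 3 fell, where 2.24% of all genes rose and 2.26% fell, and the median was -0.20. The absence of rises is near the share of all genes and is not a result about the members. For the same 3 members every delta 22 library lay below every knockdown library (3.68% of all genes). Estimates were below 0 for 30 of the 32.

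HIST4H4 had 8.50, 8.42, 8.44 and 8.51 in delta 22 libraries, against 9.09, 8.83, 8.96, 9.13 and 9.43 in knockdown libraries. It fell by 0.62 ± 0.11 (limma adjusted p = 0.00280), and its 4 delta 22 values lay closer together than those of any other group. HIST3H2A had 9.68, 9.89, 9.94 and 10.02 in delta 22 libraries, against the knockdown values of 10.27 to 10.72, and fell by 0.61 ± 0.15 (limma adjusted p = 0.0243). HIST1H2AC had 12.95, 13.09, 12.73 and 12.94 in delta 22 libraries, against 13.23, 13.42, 13.38, 13.16 and 13.47 in knockdown libraries, and fell by 0.41 ± 0.10 (limma adjusted p = 0.0210). One member was called without delta 22 replicate 1, and 1 without knockdown replicate 5, because HIST3H2A and HIST1H2AC then missed the threshold. HIST3H2A also lost its call without delta 22 replicate 2 or knockdown replicate 3, and in batches 1 to 4 alone (limma adjusted p = 0.0926). HIST1H2AC lost its call without delta 22 replicate 3 and with the compared groups only (limma adjusted p = 0.0533).

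Set against wild-type rescue, the same delta 22 libraries had 20 of 32 members lower and 0 higher, where 29.5% of all genes were lower and 31.7% higher. The median was -0.45. With single libraries left out, 14 to 21 members were called lower. HIST1H1B, HIST1H2BC and HIST1H4H lost their calls without delta 22 replicate 3 (limma adjusted p = 0.12, 0.0702 and 0.123). They also missed the threshold with the compared groups only (limma adjusted p = 0.0641, 0.0519 and 0.0684). HIST1H1C, not called in the main fit, was called without delta 22 replicate 1 or wild-type replicate 5 (limma adjusted p = 0.0229 and 0.0139). Of H1 genes 5 of 6 were lower, of H2A 3 of 8, of H2B 5 of 9, of H3 3 of 5 and of H4 4 of 4. For 8 members every delta 22 library lay below every wild-type rescue library (22.8% of all genes). HIST1H1T had 4.84, 5.05, 4.94 and 4.64 in delta 22 libraries, against 6.36 to 6.97 in wild-type rescue, a difference of -1.82 ± 0.22 (limma adjusted p = 5.11e-07). HIST1H1A differed by -1.29 ± 0.24 and HIST1H1E by -1.04 ± 0.15 (limma adjusted p = 0.000125 and 9.33e-06). All 3 were apart in every library. For HIST1H4J, with 81.2% of its windows shared, at -0.47 ± 0.19, the limma adjusted p was 0.0391 without and 0.0511 with the replicate block. For HIST3H2A, at -0.32 ± 0.15, it was 0.0760 without and 0.0450 with the block.

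Counts and medians by locus are given as a description made after the values were seen, without a test. The 21 tested HIST1 genes lie on chromosome 6, and the 11 tested HIST2, HIST3 and HIST4 genes on chromosomes 1, 1 and 12. All 6 H1 genes lie in HIST1, so for them class and locus cannot be told apart. In knockdown minus control, 21 of 21 HIST1 genes fell (median -1.12), as did 9 of 11 genes of the other loci (-0.64), beside 34.0% of all genes. In wild-type rescue minus knockdown, 10 of 21 HIST1 genes rose (median 0.32), against 1 of 11 others (HIST2H2BF, 0.43 ± 0.15, limma adjusted p = 0.0212), whose median was -0.12, beside 29.6% of all genes. The estimates of the locus groups overlapped, from -0.05 to 1.60 in HIST1 and from -0.30 to 0.43 in the others. In mut9 rescue minus knockdown, all 21 HIST1 estimates were above 0 and 8 genes rose (median 0.32), whereas 4 of 11 other estimates were above 0, 1 gene rose (HIST2H3D) and the median was -0.20, beside 23.0% of all genes that rose. These estimates also overlapped, from 0.02 to 1.39 in HIST1 and from -0.61 to 0.67 in the others. Without the H1 genes, 7 of 15 HIST1 genes rose with wild type (median 0.30) and 4 of 15 with mut9 (median 0.20), a mut9 share near that of all genes. With members under 10% shared sequence, 15 HIST1 and 5 other genes were left, and the medians in mut9 rescue minus knockdown were 0.45 and -0.22.

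HIST2H2BE, an H2B gene on chromosome 1 with octamer and CCAAT letters like those of HIST1H2BC and the GGTCCG that HIST1H2BC lacks, was not called in any rescue against knockdown. It had 12.99, 13.22, 13.47, 12.80 and 12.72 in wild-type rescue, 13.03, 13.06, 12.67 and 12.93 in delta 22 rescue and 12.98, 12.80 and 12.82 in mut9 rescue, against 12.93, 12.87, 13.10, 13.16 and 13.37 in knockdown and 13.99, 13.67, 13.61 and 13.88 in control libraries. All rescue groups overlapped the knockdown and none reached the control range. It fell by 0.70 ± 0.14 in knockdown against control (limma adjusted p = 0.000113), and the rescues differed from knockdown by -0.05 ± 0.13 (wild type), -0.16 ± 0.14 (delta 22) and -0.22 ± 0.15 (mut9), none of them called.

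The sign of the member median differed between labelled batches in each rescue minus knockdown comparison, but not in knockdown minus control. A batch holds a single library of a group, so the batch and that library cannot be told apart. Within batches 1, 2, 3 and 5, the member median of knockdown minus control was -1.22, -1.10, -0.82 and -0.76, with at least 31 of 32 members below 0 in each. In wild-type rescue minus knockdown it was 0.53, 0.59, 0.34 and 0.10 in batches 1 to 4, but -0.43 in batch 5, where 28 of 32 members lay below 0. HIST1H1T was above 0 in that batch too, with 6.36 in wild-type rescue and 5.25 in knockdown. In mut9 rescue minus knockdown the medians of batches 3, 4 and 5 were 0.23, 0.03 and -0.02. In delta 22 rescue minus knockdown they were 0.34, 0.08, -0.71 and -0.22 in batches 1 to 4, so that the direction differed between batches. In delta 22 minus wild-type rescue they were -0.28, -0.53, -0.98 and -0.36, below 0 in each, and in wild-type rescue minus control -0.69, -0.54, -0.55 and -1.14 in batches 1, 2, 3 and 5. In mut9 minus wild-type rescue they were -0.02, -0.08 and 0.42 in batches 3 to 5. A fit to batches 1 to 4 alone, added after the data were seen, called 18 members higher in wild-type rescue than in knockdown, and a fit to batches 3 to 5 alone called 3.

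**Figure D4:**
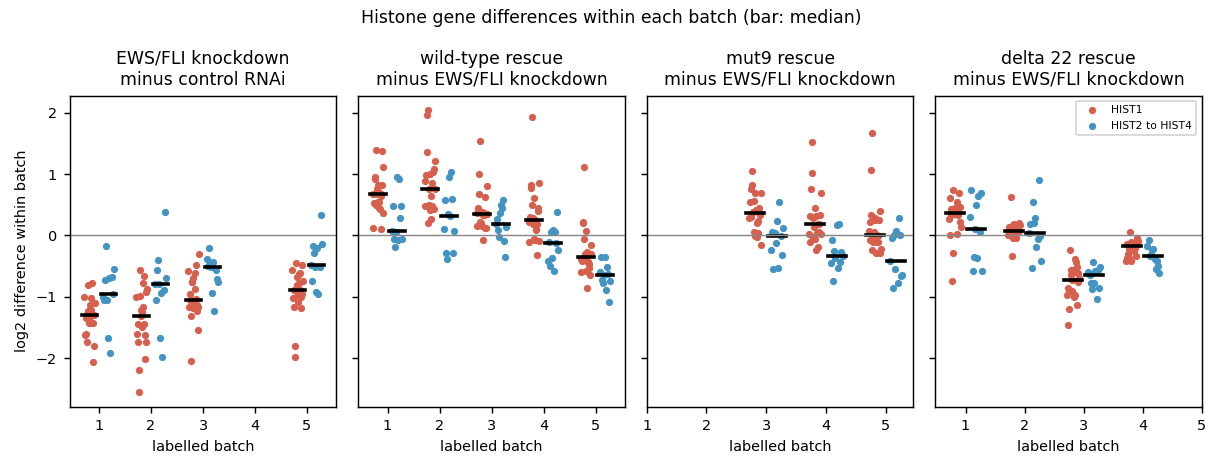
Log2 difference of each histone gene between 2 libraries of the same labelled batch (points; bars are medians), for HIST1 genes and for HIST2 to HIST4 genes, in 4 comparisons by batch. Medians of knockdown minus control lie below 0 in each batch, with 1 gene (HIST2H3C) above 0 in batches 2 and 5, wild-type rescue minus knockdown has medians above 0 for HIST1 genes in batches 1 to 4 and below 0 in batch 5, and the HIST1 median lies above that of the other loci in each batch of both the wild-type and the mut9 panels.

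Genes of S phase fell with the histone genes after knockdown. Of a list of 29 genes of DNA replication and the G1 to S transition, 25 fell and 1 rose in knockdown minus control, with a median of -0.75, where 34.0% of all genes fell and 35.5% rose. In wild-type rescue minus knockdown 19 rose and 1 fell, in mut9 rescue minus knockdown 15 rose and 0 fell, and in delta 22 rescue minus knockdown 0 rose and 2 fell (RFC4, -0.30 ± 0.08, and DSCC1, -0.84 ± 0.16, limma adjusted p = 0.0431 and 0.00505). Shares of all genes that rose in these 3 comparisons were 29.6%, 23.0% and 2.24%. With wild type the S-phase median was 0.26 and the member median 0.25, although only 11 of 32 members were called higher. In wild-type rescue minus control these medians were -0.48 and -0.75. The RFC4 call in delta 22 was lost under 10 alternatives, namely without a filter, with the compared groups only, in batches 3 to 5, in batches 1 to 4, and without delta 22 replicate 1, 2 or 3 or knockdown replicate 3, 4 or 5 (limma adjusted p = 0.0887 to 0.17). CCNE2, cyclin E2, was the gene that rose after knockdown, by 0.47 ± 0.19, and fell with wild type, by 0.62 ± 0.18 (limma adjusted p = 0.0328 and 0.00522). The list's median value per library ranged from 11.76 to 12.13 in wild-type rescue, 11.26 to 11.61 in delta 22 rescue, 11.90 to 12.07 in mut9 rescue, 11.32 to 11.92 in knockdown and 12.34 to 12.50 in control libraries. The member median ranged from 11.17 to 12.04, 10.79 to 11.66, 11.72 to 11.82, 11.07 to 11.47 and 12.41 to 12.74 in the same groups. In batch 5, where members were lower in wild-type rescue than in knockdown, the S-phase median difference was -0.11, against 0.61, 0.56, 0.20 and 0.24 in batches 1 to 4. The part of S-phase content in the histone results was not tested.

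PCNA, the sliding clamp of DNA replication, fell by 1.17 ± 0.12 in knockdown against control (limma adjusted p = 6.91e-08). It had 13.17, 13.24, 13.02, 13.04 and 12.66 in wild-type rescue libraries, against 12.55, 12.73, 13.07, 13.04 and 13.15 in knockdown libraries, an overlapping pair of groups (0.12 ± 0.12, limma adjusted p = 0.399), called under quantile scaling (0.25, limma adjusted p = 0.0423). MCM2, of the replicative helicase, fell by 0.96 ± 0.09 after knockdown and rose by 0.48 ± 0.09 with wild type and 0.51 ± 0.10 with mut9 (limma adjusted p = 2.56e-08, 0.000118 and 0.000387). RFC4, of the clamp loader, and POLA1, of the priming polymerase, fell by 1.01 ± 0.08 and 1.13 ± 0.10 after knockdown (limma adjusted p = 1.64e-09 and 6.56e-09).

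**Figure D5:**
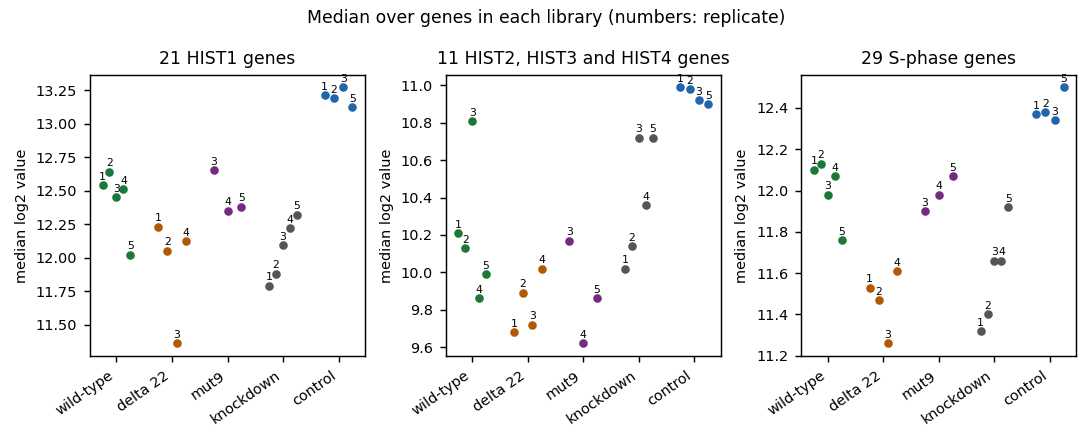
Median log2 value per library (points, numbered by replicate) over 21 HIST1 genes, 11 HIST2 to HIST4 genes and 29 S-phase genes, for wild-type, delta 22 and mut9 rescue, knockdown and control libraries. Control libraries are highest in all 3 panels, delta 22 replicate 3 is the lowest library for HIST1 and S-phase genes, and wild-type replicate 5 is the lowest of its group in those panels.

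The factors that make and process histone mRNA included genes that fell and genes that rose after knockdown. Of 25 genes for histone gene transcription and 3′ end processing, 15 fell and 6 rose in knockdown minus control (median -0.27), where 34.0% of all genes fell and 35.5% rose. NPAT had 12.20, 12.25, 12.16, 12.13 and 12.19 in knockdown libraries, against 11.97, 11.92, 11.97 and 12.07 in control libraries. It was higher after knockdown, opposite to the histone genes, by 0.21 ± 0.05 (limma adjusted p = 0.00166), a call lost under quantile scaling (0.08) and in batches 3 to 5 (0.14). SLBP differed by -0.17 ± 0.09 (limma adjusted p = 0.0881), a value that was called with a replicate block (limma adjusted p = 0.0438), under quantile scaling (-0.28, limma adjusted p = 0.00577), under trimmed-mean rescaling (limma adjusted p = 0.0461) and without knockdown replicate 5 (limma adjusted p = 0.0358).

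CASP8AP2, a partner of NPAT at histone locus bodies, fell by 0.49 ± 0.08, the U7 snRNP genes LSM10 and LSM11 by 0.27 ± 0.09 and 0.44 ± 0.14, CPSF3, the nuclease that cuts histone pre-mRNA, by 0.64 ± 0.06, and COIL, the Cajal body protein coilin, by 0.75 ± 0.08 (limma adjusted p = 1.82e-05, 0.00905, 0.00940, 3.29e-08 and 5.13e-08). ZCCHC11, which adds uridines to histone mRNA ends, fell by 0.55 ± 0.06 (limma adjusted p = 2.35e-07). LSM10 had 7.97, 8.29, 8.29 and 8.38 in delta 22 libraries, against 8.51, 8.74, 8.69, 8.68 and 8.52 in knockdown libraries, and fell there by 0.39 ± 0.09 (limma adjusted p = 0.0127). That call was lost without delta 22 replicate 1, with the compared groups only and in batches 3 to 5 (limma adjusted p = 0.0564, 0.105 and 0.253). The falls of LSM10 and LSM11 in knockdown minus control were not called in batches 3 to 5 (-0.25 and -0.37, limma adjusted p = 0.062 and 0.0627).

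Of 28 histone chaperone and assembly genes, 16 fell and 4 rose in knockdown minus control, and 17 rose and 4 fell in wild-type rescue minus knockdown, where 34.0% of all genes fell and 35.5% rose in the first comparison, and 29.6% rose and 32.3% fell in the second. NASP, a carrier of soluble H3 and H4 and of H1, fell by 0.91 ± 0.10 after knockdown and rose by 0.60 ± 0.09 with wild type (limma adjusted p = 6.83e-08 and 9.48e-06). CHAF1A, of the assembly factor that follows the replication fork, fell by 0.81 ± 0.08 and rose by 0.62 ± 0.08 (limma adjusted p = 4.51e-08 and 1.23e-06).

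Genes listed as replication-independent histone variants were called in both directions. Of 11 tested, 5 fell and 3 rose in knockdown minus control, where 34.0% of all genes fell and 35.5% rose, so these counts are near the shares of all genes and say nothing particular of the list. H2AFY2, the macroH2A2 gene, had 11.11, 11.27, 11.74, 11.81 and 11.60 in knockdown libraries, against 13.96, 13.73, 13.68 and 13.77 in control libraries. It fell by 2.28 ± 0.15 (limma adjusted p = 1.24e-10), more than the estimate for any replication-dependent member, and it rose by 1.63 ± 0.15 with wild type and 1.46 ± 0.17 with mut9 (limma adjusted p = 1.14e-08 and 8.34e-07). Delta 22 differed from knockdown by -0.17 ± 0.15 (limma adjusted p = 0.598).

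H1F0, the gene of the linker histone H1.0 of non-dividing cells, had 11.60, 11.77, 11.75, 11.39 and 11.62 in knockdown libraries, and no control library exceeded 10.41. It rose by 1.40 ± 0.22 (limma adjusted p = 1.37e-05), while all 6 replication-dependent H1 genes fell. H2AFJ, an H2A variant gene, rose by 1.45 ± 0.12 and H3F3B, one of the genes of H3.3, by 0.62 ± 0.07 (limma adjusted p = 2.45e-09 and 2.71e-07). H3F3A, which encodes the same H3.3 protein, fell by 0.64 ± 0.12, and H2AFZ, the H2A.Z gene, by 0.90 ± 0.12 (limma adjusted p = 0.000117 and 1.06e-06). H2AFX, whose product is phosphorylated at DNA breaks, differed by -0.22 ± 0.12 (limma adjusted p = 0.114). That value was called under quantile scaling (-0.31, limma adjusted p = 0.0180) and without control replicate 1 (-0.30, limma adjusted p = 0.0406).

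The variants that rose after knockdown were lower in wild-type rescue than in knockdown, where 32.3% of all genes fell. They were taken for their rise, and the same knockdown libraries serve in both comparisons. A fall here is therefore favoured by the choice of genes. H1F0 had 9.86, 10.72, 11.55, 10.26 and 10.54 in wild-type rescue libraries, of which replicate 3 overlapped the knockdown, and fell by 1.04 ± 0.21 (limma adjusted p = 0.000253). H2AFJ and H3F3B fell by 1.06 ± 0.11 and 0.39 ± 0.07 (limma adjusted p = 1.39e-07 and 5.34e-05). In delta 22 rescue H2AFJ and H3F3B differed from knockdown by 0.01 ± 0.12 and -0.02 ± 0.07, and H1F0 by -0.67 ± 0.22 (limma adjusted p = 0.0897), which was called with a replicate block (limma adjusted p = 0.0285).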

How the data were processed

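RNA of A673 cells was sequenced in 21 libraries. The authors deposited normalized log2 values for 57820 genes (-4.09 to 20.22, with 17358 genes at 0 in every library), whose form is that of regularized logarithms. The submitters' processing notes name hg19 as the build, with STAR 2.5.2b among the tools, beside bcl2fastq, DESeq2 and HTSeq. Strandedness and the counting of shared reads are not given in the sources used here, and the values keep no library totals, so no pseudocount or count test applied.

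IDs were joined to GENCODE 29 (52338 matched, 5482 not). Of 55 rows with histone names, 20 pseudogenes were left out (HIST2H3PS2 by its name). The filter for testing was a linear value of 10 or more in 3 or more libraries. Limma 3.58.1 (trend, R 4.3.3) was fitted with 1 mean per group to all libraries, with Benjamini-Hochberg adjustment over 18040 genes, 2-sided, called below 0.05, and was checked on simulated data. Alternatives were no filter, a mean of at least 100, trimmed-mean and quantile scaling, a replicate block, compared groups only, batches 3 to 5 only and single libraries left out. Batches 1 to 4 only was added after the data were seen.

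Replicate numbers are the labelled batch, and so pair libraries across groups. Deviations from group means correlated at 0.2034 on average over 34 same-batch pairs (24 above 0.1), against -0.0488 over 141 other pairs. The gene family and the lists were chosen with earlier results of these data known. The rule that finds the members reads names only, and the lists come from general knowledge. Genes named are the 3 most abundant members of each class, the 3 largest called changes in each direction of each comparison, the list of genes with polyadenylated forms, called members that moved against their class, the 3 smallest adjusted p per other list, and a set of regulators and variants. CCNE2, DSCC1, HIST1H2BJ, HIST1H4J, HIST2H2AA3, HIST2H2BF, HIST2H3C and HIST3H2BB are named outside this rule or after their values were seen. One marker gene of another cell type is not reported here. No pair of libraries held identical values (highest correlation 0.9978).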

Additional observations from a re-analysis of the deposited data

Results flagged for a closer look

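A total of 5 of 128 gene and group combinations of 4 or 5 libraries held a library far from the others, where chance flags about 1 in 20. Wild-type rescue replicate 5 was the low library for 3 genes: HIST1H2AG (12.85, against 13.36 to 13.45 in the other 4 libraries), HIST1H2BJ (12.23, against 12.86 to 13.08) and HIST1H3J (10.13, against 10.75 to 10.92). This is the library without which 18 members in place of 11 were called higher in wild-type rescue than in knockdown. HIST1H1D in delta 22 rescue replicate 3 was low (12.76, against 13.73 to 13.81). HIST1H4H in knockdown replicate 5 was high (12.19, against 11.58 to 11.73).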

How the results depend on the processing

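The count of members lower in knockdown than in control was 30 with each library left out in turn. In wild-type rescue minus knockdown, members called higher numbered 11, but 19 under quantile scaling, 18 in batches 1 to 4, 3 in batches 3 to 5, and 6 to 18 with single libraries left out. Members called lower there numbered 0, but 1 (HIST3H2A) with a replicate block, and 0 to 2 with single libraries left out (1 without knockdown replicate 1, 2 without wild-type replicate 3). In delta 22 rescue minus knockdown the 3 lower became 0 in batches 3 to 5 and 1 to 3 with single libraries left out. In mut9 rescue minus knockdown the 9 higher became 14 under quantile scaling, 5 in batches 3 to 5 and 6 to 12 with single libraries left out, and the 1 lower became 2 with a replicate block (HIST3H2BB, limma adjusted p = 0.0440). The block changed no other member's call than those given here or beside the results. Of 4831 values of 287 single-gene results under alternatives, 4610 stayed on the same side of the threshold, 138 missed it and 83 newly passed it. No called result changed sign, and no uncalled one was called in the other direction (0 reversed). A change of sign in a result that stayed uncalled was not counted. Batches 3 to 5 hold fewer libraries, and some estimates there were smaller and others larger than in the main fit. No cause of the changed calls was tested. Depth is not known, so precision is limited by 3 to 5 libraries a group and by sequence shared between copies.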
